A study of Mus musculus with 7 samples.

Results

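The replication-dependent histone genes are the clustered genes for the linker histone H1 and the core histones H2A, H2B, H3 and H4. They were taken as every feature that carried a single gene number and a symbol of the H1f1 to H1f6, H2ac, H2bc, H3c or H4c series, or the older Hist names for the same genes. This gave 54 genes of 24990 features, with 6 for H1, 13 for H2A, 15 for H2B, 10 for H3 and 10 for H4. Of these, 48 lie on chromosome 13 and 6 on chromosome 3. Rows that held several histone genes (5) or a further copy of a transcript (9) were kept apart and are reported as uncertain.

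The study asked how the locus of the long non-coding RNA Meteor bears on Eomes, a transcription factor of early mesoderm and endoderm. Embryoid bodies, aggregates in which embryonic stem cells differentiate, were made from the mouse embryonic stem cell line R1 and collected on day 4. Cells were freed of feeder fibroblasts on gelatin, and 500 cells were hung in each drop of 27 µl in a serum medium lacking Lif, the factor that keeps the cells undifferentiated. All 7 libraries came from the QuantSeq 3′ kit of Lexogen. It starts from the poly(A) end of RNA and reads the 3′ end of a transcript.

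By title, WT was unmodified (2 libraries), pKO lacked the Meteor promoter (2), and pInv carried it inverted (1). Ctrl received an empty vector (1), and KD a CRISPR knockdown of Meteor (1), named with Cas9 in the design text and with dCas9 in the sample field. The genotype field goes against the title in 5 of the 7 libraries. It reads Meteor promoter KO for WT 1 and WT 2, Meteor promoter inversion for pKO 1, and WT for pKO 2 and pInv. Every group below is the library as titled, and whether title or field is right was not settled. The labels do not give the number of clones behind a genotype, nor whether the libraries within a group are from separate cultures. The p-values therefore measure the spread between these libraries, which may be technical. Levels are given as CPM, the counts per 1000000 counts of the scaled library total. Eomes stood at 459 (WT 1), 312 (WT 2), 337 (pKO 1), 445 (pKO 2), 390 (pInv), 421 (Ctrl) and 399 (KD) CPM, and the pKO and WT libraries overlapped. No feature was identified as Meteor, so the labels were not checked against it.

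Most histone protein is made in S phase, when DNA is copied and new chromatin needs packaging. The mRNAs of the replication-dependent genes are unusual in that they end in a conserved stem-loop, bound by the protein SLBP, in place of a poly(A) tail. Replacement histones, such as H2A.Z and H3.3, are made outside S phase too, mostly from ordinary polyadenylated mRNAs. A kit that starts from poly(A) thus sees the replication-dependent genes only through RNA that carries a run of A, and the levels below describe that RNA.

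The stem-loop was searched in GENCODE M21 transcripts (GRCm38) as the 16-base word GGNNNTTNTNAGNGCC after the stop codon of the longest reading frame, on the transcript strand. All 54 genes matched a transcript, and 33 held the word, 21 to 46 bases after the stop codon. Of the other 21, the transcript model of 15 ended within 10 bases of the stop codon, which leaves no place for a match. The word was found in 0.228% of all 141767 transcripts. The windows below show the 14 bases before the stem-loop in lower case and the stem-loop in capitals, for well-counted genes of each class and for an H2A pair whose rows dominate the family's counts. H2ac20 lies on chromosome 3 and the others on chromosome 13, each window in the 3′ untranslated region.
H1f4: cccaacaacccaaaGGCTCTTTTCAGAGCC
H1f2: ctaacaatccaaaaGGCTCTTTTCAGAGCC
H1f3: tgaaaatctcaaacGGCTCTTTTCAGAGCC
H2ac4: ttaaccaaaacaaaGGCTCTTTTCAGAGCC
H2ac8: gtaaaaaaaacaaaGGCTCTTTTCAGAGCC
H2ac20: cacgaatccaaaaaGGCTCTTTTTAGAGCC
H2bc22: actccaaacacaaaGGCTCTTTTCAGAGCC
H3c4: atttggaccccaaaGGCTCTTTTCAGAGCC
H3c3: gctatttaaaaaaaGGCTCTTTTAAGAGCC
H4c4: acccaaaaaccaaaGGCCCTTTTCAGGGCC
H2ac23: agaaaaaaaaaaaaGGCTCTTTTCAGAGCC
H2ac24: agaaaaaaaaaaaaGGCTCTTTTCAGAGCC

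The loop varied little. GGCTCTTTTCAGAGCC stood in 18 of the 33 genes, among them 5 of the 6 H2A and 7 of the 9 H2B genes with a loop. The H4 genes had another stem: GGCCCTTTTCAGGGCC was found in 4 of 7. The bases just before the loop varied more. The longest run of A between stop codon and stem-loop was 3 bases in the median gene, 7 in H3c3 and 8 in H2ac8, the longest among the 33. In H2ac23 and H2ac24, which are outside the 54 because they share a merged row, a run of 12 A ended directly at the stem-loop. Whether such a run bears on the counts was not tested.

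In the RefSeq promoters (GRCm38.p6, 250 bases before to 50 after the start), 49 of the 54 genes had an entry. CCAAT, the box bound by NF-Y, was present on either strand in 43 of 49, beside 37.9% of 27025 promoters of all genes. It was in 13 of 13 H2A and 13 of 13 H2B promoters and in 3 of 9 H4 promoters. TATAAA was in 31 of 49, beside 14.2% of all. The octamer ATTTGCAT, bound by Pou2f1, was in 6 of 13 H2A and 6 of 13 H2B promoters and in 12 of 49 in all, beside 1.75%. AAACACA, the H1 box, was in 5 of 6 H1 promoters, beside 7.14%; this word was added after the others. The promoters of the 2 genes with the most counts are shown, with these words in capitals, as an H1 and an H2A example. The H1f4 promoter lies on the minus strand at chr13:23622509-23622808 and holds the H1 box, then the CCAAT box and nearest the start the TATAAA word, and that of H2ac13 lies on the plus strand at chr13:21716162-21716461 and holds CCAAT 4 times, counting both strands.
H1f4: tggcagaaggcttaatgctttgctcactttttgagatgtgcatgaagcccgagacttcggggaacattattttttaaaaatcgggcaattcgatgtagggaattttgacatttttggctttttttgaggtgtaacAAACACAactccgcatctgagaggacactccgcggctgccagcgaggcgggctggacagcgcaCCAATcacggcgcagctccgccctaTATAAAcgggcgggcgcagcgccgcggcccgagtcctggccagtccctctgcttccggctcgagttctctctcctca
H2ac13: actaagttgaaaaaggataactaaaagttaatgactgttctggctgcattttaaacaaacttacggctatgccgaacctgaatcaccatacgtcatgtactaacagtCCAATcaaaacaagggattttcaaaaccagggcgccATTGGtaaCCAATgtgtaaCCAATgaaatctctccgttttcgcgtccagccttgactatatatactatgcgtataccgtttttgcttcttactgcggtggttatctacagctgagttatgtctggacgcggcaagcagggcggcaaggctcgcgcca

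Library totals ran from 1898350 (WT 2) to 2564478 (WT 1) expected counts, of which the 45S ribosomal RNA precursor took 12.9% to 24.1%. WT 2 stood apart: it was the lowest of the 7 libraries for 27.7% and the highest for 24.7% of the 10265 features tested, where the other 6 were lowest for 9.29% to 17.0%. Of 11 markers of epiblast and primitive streak all were counted, and 8 were lowest in WT 2. Their summed level was 3118 to 4226 CPM over all 7 libraries, so the labelled tissue's markers were present. Among 7 macrophage markers, Lyz2 stood at 175, Adgre1 at 28.6 and Csf1r at 12.5 CPM in KD, and in the other 6 libraries these 3 summed to 0 to 0.750 CPM. In KD the other 4 lay between 0 (Ptprc and Fcer1g) and 2.77 CPM (Tyrobp). No feeder fibroblast marker reached the filter on low counts. In bulk RNA, fewer cells of a type and less RNA per cell cannot be told apart.

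The 54 genes together took a small share of each library. They summed to 556 (WT 1), 530 (WT 2), 536 (pKO 1), 431 (pKO 2), 524 (pInv), 594 (Ctrl) and 523 (KD) CPM. As shares of the unscaled library totals, the lowest was 0.0438% (95% Wilson interval 0.0412 to 0.0465) in pKO 2. The highest was 0.0579% (0.0550 to 0.0609) in WT 1. These intervals do not overlap, but the order rests on H2ac13, described below. Without H2ac13, WT 1 was at 0.0394% (0.0370 to 0.0419) and pKO 2 at 0.0431% (0.0406 to 0.0459). With the merged and copy rows the sums ran from 2827 (KD) to 4899 CPM (WT 2). The intervals, like all here, cover at most counting error, since none uses replicate libraries. The libraries are not described as having molecular identifiers, so counts may include copied reads. Error in dividing reads among near-copies is not covered either. The mean was 543 ± 19.0 (SD, n = 2) CPM in WT and 484 ± 74.3 (n = 2) in pKO, and pKO 1 lay between the WT libraries.

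The counts were concentrated in a few genes. In each library the 5 highest took 62.2% to 71.5% of the family's counts, and H1f4 alone 22.2% to 34.8%. Only 11 of the 54 had a mean of 10 CPM or more and 20 had a mean under 1 CPM. A count was seen in all 7 libraries for 26 genes, and for 1, the testis gene H2bc1, in none. With 3 counts as the limit that a count of 0 allows, 0 stood for up to 1.12 CPM in WT 1 and up to 1.80 CPM in WT 2. The testis variants H1f6 and H2ac1 were at 0 to 0.849 and 0 to 1.5 CPM.

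**Figure D1:**
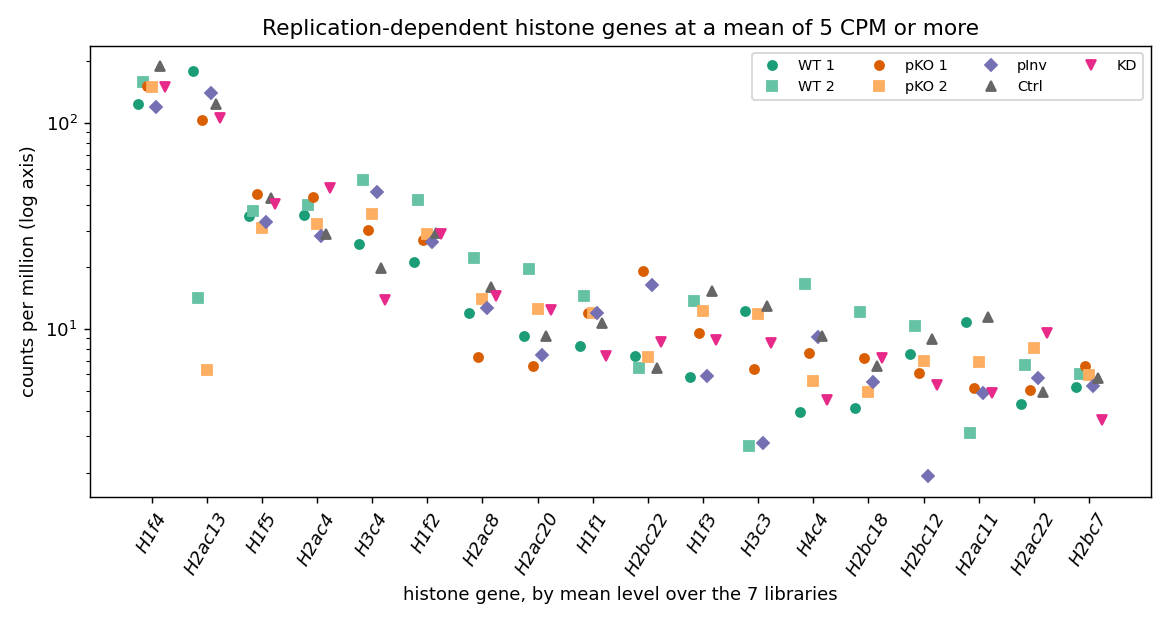
Level in CPM (log axis) of the 18 replication-dependent histone genes with a mean of 5 CPM or more, ordered by mean, with 1 point per library (colour and shape). H1f4 lies between 120 and 188 CPM in every library, while H2ac13 lies at 14.2 and 6.31 CPM in WT 2 and pKO 2 and at 103 CPM or more in the other 5.

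Per listed length, the order was partly that of the lengths. The authors' TPM scale divides by length, although the kit reads the 3′ end, so that counts need not grow with length. On that scale H2ac13 had the highest mean (1018), followed by H1f4 (813) and H2ac4 (334). H2ac11 (66.9), H1f5 (53.5), H3c4 (50.1) and H1f2 (41.8) came next. The listed lengths were of 2 kinds: 32 of the 54 equal the length of the gene in the RefSeq table plus exactly 2000 bases, and 9 are listed under 1000 bases. The median of the mean TPM was 33.1 among those 9 and 2.67 among the other 45. H1f4, H2ac13, H2ac4 and H2ac11 belong to the shorter kind, and a TPM of a gene listed with the extra bases is lower for the same count. Counts of the 2 kinds may also cover unlike stretches, which would bear on the CPM levels and class sums. Whether reads from the extra bases add to the counts was not tested.

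Linker histone H1, which binds the DNA between nucleosomes, gave the largest class sum among the 54 genes in 5 of 7 libraries, and H2A in WT 1 and pInv. The merged and copy rows, mostly of H2A, are left out of these sums; they held 2304 to 4370 CPM, more than H1 in every library. The H1 genes summed to 194 (WT 1), 265 (WT 2), 244 (pKO 1), 233 (pKO 2), 198 (pInv), 287 (Ctrl) and 235 (KD) CPM. H1f4 stood at 123 (WT 1), 157 (WT 2), 150 (pKO 1), 150 (pKO 2), 120 (pInv), 188 (Ctrl) and 150 (KD) CPM. The pKO libraries lay between those of WT, and pInv lay just below both.

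H1f4 had a 1.57-fold range and H1f5 a 1.46-fold range, while those of H1f2 (1.99), H1f1 (1.95) and H1f3 (2.63) were wider. H1f5 ranged from 30.8 (pKO 2) to 44.9 CPM (pKO 1), so that pKO held both ends. H1f2 stood at 21.1 in WT 1 and 42.0 in WT 2 and at 26.4 to 29.0 CPM in the other 5. H1f1 ranged from 7.39 (KD) to 14.4 CPM (WT 2), and H1f3 from 5.81 (WT 1) to 15.3 CPM (Ctrl). For H1f2, H1f1 and H1f3 alike, WT 1 was lower than WT 2 and both pKO libraries lay between them.

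**Figure D2:**
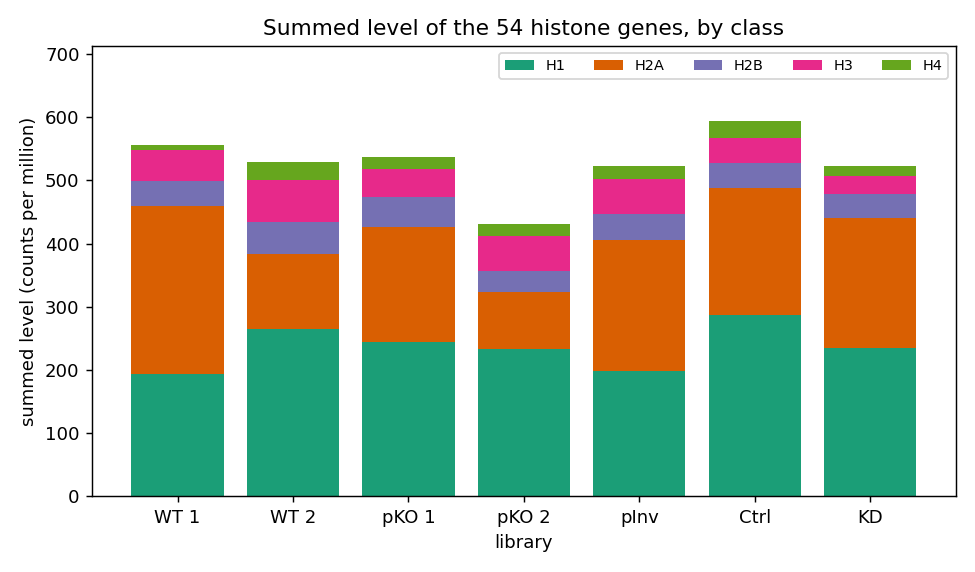
Summed level in CPM of the 54 genes in each library, stacked by class; the bars start at 0 and there is 1 bar per library. The full height runs from 431 (pKO 2) to 594 CPM (Ctrl), and the H2A part is smallest in WT 2 and pKO 2, at 118 and 89.1 CPM.

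The H2A class, whose protein pairs with H2B in the nucleosome core, varied most in absolute terms. It summed to 265 (WT 1), 118 (WT 2), 183 (pKO 1), 89.1 (pKO 2), 208 (pInv), 201 (Ctrl) and 206 (KD) CPM. In WT and pKO alike, the library numbered 2 was the lower. This followed 1 gene, H2ac13, at 178 (WT 1), 14.2 (WT 2), 103 (pKO 1), 6.31 (pKO 2), 140 (pInv), 123 (Ctrl) and 106 (KD) CPM, a 28.2-fold range. Of the 4682 features with a mean of 20 CPM or more, 13 had a wider range, and their median range was 1.74-fold. Without H2ac13, the sum of the other 53 genes was 379 (WT 1), 515 (WT 2), 433 (pKO 1), 425 (pKO 2), 383 (pInv), 471 (Ctrl) and 417 (KD) CPM. WT 2, among the middle libraries with H2ac13, was then the highest.

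The H2ac13 values cannot be read apart from those of its near-copies. H2ac23 and H2ac24 have the same coding sequence, and H2ac13 differs from it at 6 of 393 bases. RSEM divides reads that fit several such features by estimate, over the H2ac13 row, a merged row of H2ac23 and H2ac24, and a further row for a copy of each. The H2ac23 copy row took 64.1% of the 4 rows' counts in Ctrl, 16.2% in pKO 1 and 0.0842% in WT 2. The merged row took 49.9% in WT 2, 49.99% in pKO 2 and 16.3% in Ctrl. In WT 2 and pKO 2, both the H2ac13 row and the H2ac23 copy row were thus nearly empty.

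Summed over the 4 rows, the level was 2512 (WT 1), 4322 (WT 2), 2691 (pKO 1), 3229 (pKO 2), 2675 (pInv), 3240 (Ctrl) and 2372 (KD) CPM, a 1.82-fold range. The sum leaves out H2A genes closer to the H2ac23 coding sequence than H2ac13. Among them are H2ac7 and H2ac11 at 3 differing bases and H2ac6 and H2ac22 at 5. The order turned: WT 2, second lowest for H2ac13 alone, was the highest for the sum. The sum was several times that of all 54 genes, so the histone counts were mainly assigned to the H2ac23 and H2ac24 sequence. These are the genes with the run of 12 A shown above, whose bearing on the counts was not tested. In edgeR's quasi-likelihood test the sum gave a log2 difference of -0.21 (SE 0.33, adjusted p = 1) for pKO against WT, -0.35 (SE 0.41, adjusted p = 1) for pInv against WT and -0.15 (SE 0.40, adjusted p = 1) for pInv against pKO.

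**Figure D3:**
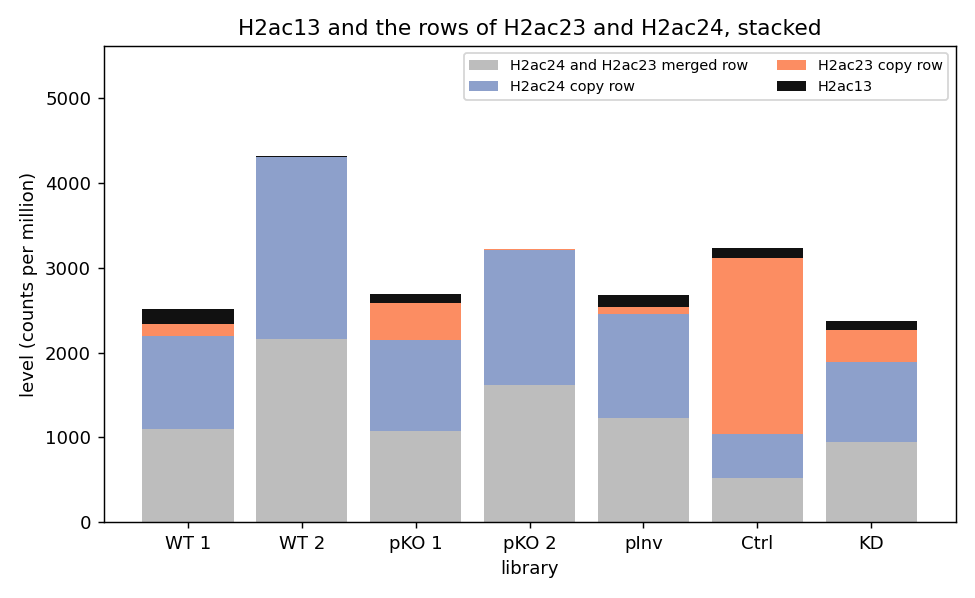
Level in CPM of H2ac13, the merged row of H2ac23 and H2ac24, and their copy rows, stacked from 0, with 1 bar per library. The full height runs from 2372 (KD) to 4322 CPM (WT 2), while the H2ac13 part is 14.2 CPM in WT 2 and 178 CPM in WT 1 and the H2ac23 copy part is 2078 CPM in Ctrl.

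Among the other H2A genes, H2ac7 was also lower in the libraries numbered 2, at 6.14 (WT 1), 4.07 (WT 2), 6.10 (pKO 1), 2.03 (pKO 2), 6.09 (pInv), 3.04 (Ctrl) and 0 CPM (KD). H2ac4 stood at 35.6 (WT 1), 40.0 (WT 2), 43.8 (pKO 1), 32.3 (pKO 2), 28.2 (pInv), 28.8 (Ctrl) and 48.4 (KD) CPM, with pInv below and the pKO libraries on either side of WT. H2ac8 ranged from 7.28 (pKO 1) to 22.1 CPM (WT 2) and H2ac20 from 6.60 (pKO 1) to 19.5 CPM (WT 2). Both were highest in WT 2 and lowest in pKO 1. H2ac11 ranged from 3.12 (WT 2) to 11.4 CPM (Ctrl). H2ac11 and H2ac7 each differ from H2ac23 at 3 coding bases, so reads may be shared here as well. The rows of the merged pair H2ac18 and H2ac19, on chromosome 3, were steadier: 17.7 (KD) to 29.2 CPM (WT 2) in the merged row and 17.7 (KD) to 28.2 CPM (WT 2) in the H2ac18 copy row.

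H2B had the most genes (15) and few counts. The class summed to 33.4 (pKO 2) to 50.7 CPM (WT 2). H2bc22 stood at 7.35 (WT 1), 6.48 (WT 2), 19.1 (pKO 1), 7.26 (pKO 2), 16.3 (pInv), 6.46 (Ctrl) and 8.63 (KD) CPM. It was high in pKO 1 and pInv only, and pKO 2 lay between the WT libraries. H2bc12 stood at 7.5 (WT 1), 10.3 (WT 2), 6.09 (pKO 1), 6.98 (pKO 2), 1.91 (pInv), 8.93 (Ctrl) and 5.35 (KD) CPM. It was lowest in pInv, and both pKO libraries lay below both of WT. H2bc18 ranged from 4.13 (WT 1) to 12 CPM (WT 2) and H2bc7 from 3.59 (KD) to 6.55 CPM (pKO 1).

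The H3 and H4 proteins together form the centre of the nucleosome. The H3 genes summed to 29.1 (KD) to 66.1 CPM (WT 2), and H3c4 had the most counts of them, at 25.7 (WT 1), 52.8 (WT 2), 30.2 (pKO 1), 36.2 (pKO 2), 46.0 (pInv), 19.6 (Ctrl) and 13.7 (KD) CPM. The pKO and pInv libraries lay within the range of WT, and Ctrl and KD below all others. H3c3 stood at 12.1 (WT 1), 2.69 (WT 2), 6.41 (pKO 1), 11.8 (pKO 2), 2.79 (pInv), 12.8 (Ctrl) and 8.51 (KD) CPM, with WT 2 and pInv low. H4 summed to 9.0 (WT 1), 29.2 (WT 2), 19.0 (pKO 1), 18.6 (pKO 2), 21.2 (pInv), 26.6 (Ctrl) and 15.8 (KD) CPM. The WT libraries held both ends. H4c4 ranged from 3.93 (WT 1) to 16.4 CPM (WT 2), H4c9 from 1.78 (WT 1) to 6.79 CPM (pKO 2) and H4c8 from 0.581 (WT 1) to 5.88 CPM (Ctrl).

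A filter on low counts left 23 of the 54 genes for the test, 5 of H1, 8 of H2A, 5 of H2B, 2 of H3 and 3 of H4. The other 31 were too low to test, so the results below do not cover them. The fit held all 7 libraries, and the single pInv library was assumed to vary as much as WT and pKO did. The comparisons of pKO and of pInv with WT share the WT libraries, and those of pInv share the pInv library.

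No replication-dependent histone gene passed an adjusted p of 0.05 in pKO against WT, where 0% of the 10265 features did. At an unadjusted p under 0.05, edgeR gave 0 of the 23, beside 1.03% of all features. DESeq2 and limma on log2(TPM + 1) called none of them at the adjusted threshold. The genes divided evenly, with 12 higher and 11 lower in pKO, a median log2 difference of 0.01 beside 0.00 over all features. Without WT replicate 2 the median was 0.30, and without the filter it was -0.20 over 53 genes, including those too low to test. The smallest p was that of H2bc22, with a log2 difference of 0.81 (SE 0.55, unadjusted p = 0.145, adjusted p = 1 in edgeR), followed by H2ac8 at -0.62 (SE 0.49). H4c8 (0.76, SE 0.98), H4c9 (0.69, SE 0.71) and H2ac20 (-0.52, SE 0.53) came next. Only H4c8 lay higher and H2bc12 lower in both pKO libraries than in both of WT, that is 1 of 23 each way, beside 11.9% and 12.9% of all features.

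H2ac13 shows how far 1 library decides such a value. Its log2 difference was -0.84 (SE 1.2, adjusted p = 1 in edgeR) in pKO against WT. It was 1.84 without WT replicate 1 and -3.78 without pKO replicate 1. Summed with its near-copies it was the -0.21 given above.

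No replication-dependent histone gene passed in pInv against WT either, where again 0% of the 10265 features did. At an unadjusted p under 0.05 edgeR gave 1 of the 23, beside 1.48% of all features, and DESeq2 and limma called none at the adjusted threshold. That gene was H2bc12, with a log2 difference of -1.67 (SE 0.72, unadjusted p = 0.0243, adjusted p = 1 in edgeR), from 5 counts in pInv. Of the 23, 7 were higher and 16 lower in pInv, and the median was -0.23, beside -0.01 over all features. Without WT replicate 2 it was -0.02. H4c8 (1.47, SE 1.04), H2bc22 (1.13, SE 0.63), H3c3 (-1.13, SE 0.996) and H2ac20 (-0.81, SE 0.68) had the next smallest p. The pInv library lay above both WT libraries for 2 of the 23 (H2bc22 and H4c8), beside 29.1% of all features, and below both for 5 (H2ac4, H2ac20, H2bc12, H1f4 and H1f5), beside 28%.

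The same held for pInv against pKO, where 0% of the 10265 features and 0 of the 23 genes passed. At an unadjusted p under 0.05 edgeR gave 0 of the 23, beside 1.49% of all features, and DESeq2 and limma called none at the adjusted threshold. The median was -0.16, with 7 higher and 16 lower, beside 0.00 over all features, and without pKO replicate 2 it was -0.05. H2bc12 had the smallest p, at -1.31 (SE 0.73, unadjusted p = 0.0589, adjusted p = 1 in edgeR). H3c3 (-1.37, SE 0.99), H2ac6 (-1.54, SE 1.49), H1f3 (-0.79, SE 0.66) and H4c9 (-0.86, SE 0.89) followed. The pInv library lay below both pKO libraries for 11 of the 23, beside 31.5% of all features, and above both for 4, beside 34.3%.

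**Figure D4:**
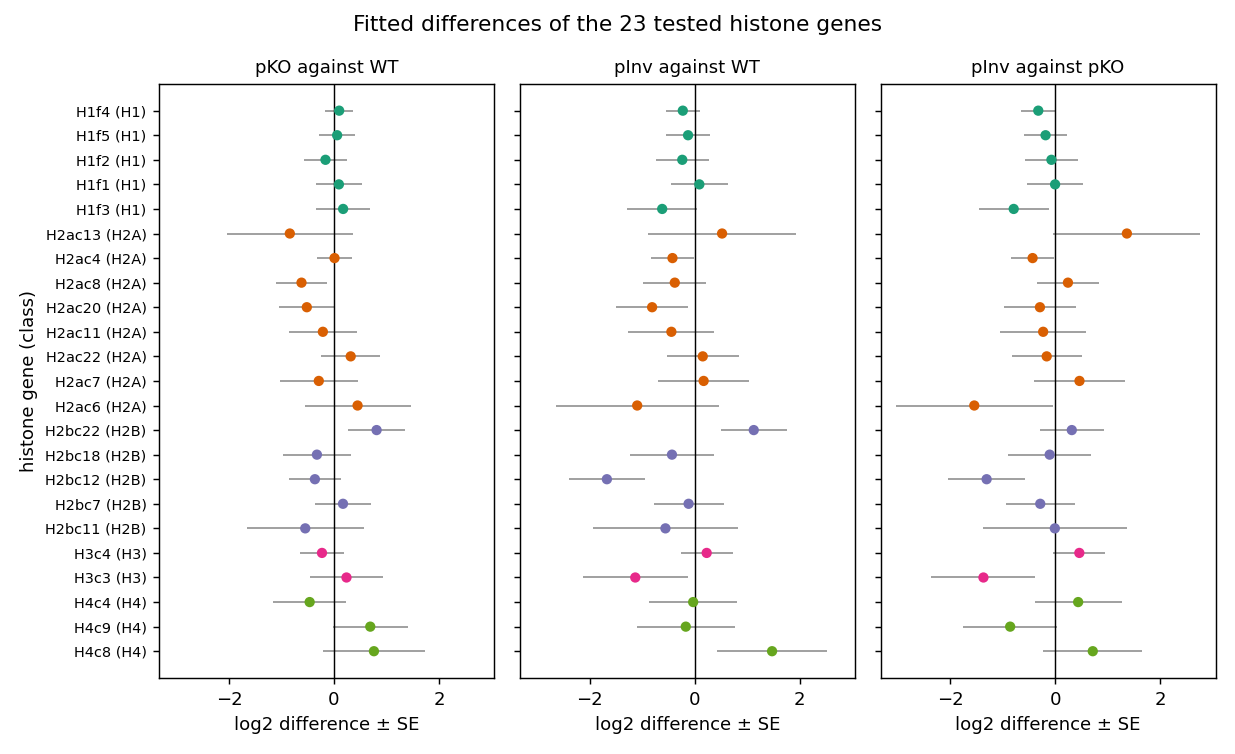
Fitted log2 differences with their standard errors for the 23 tested genes in pKO against WT, pInv against WT and pInv against pKO, coloured by class; the vertical line marks no difference. The standard errors come from a second fit with edgeR's default prior count, so at low counts they do not belong to the point shown. Most bars cross the line. Genes farther from it than their standard error in both pInv panels include H2bc12 (-1.67 and -1.31), H3c3 (-1.13 and -1.37) and H2ac4 (-0.42 and -0.43).

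KD against Ctrl had 1 library a group, so there is no test and no replicate check. The family sum of KD (523 CPM) over that of Ctrl (594 CPM) was 0.880. The same quotient was 0.818 for H1, 1.02 for H2A, 0.966 for H2B, 0.717 for H3 and 0.596 for H4. By a rule of at least 20 CPM in either library and a 2-fold change, 0 of 5 histone genes qualified, beside 4.05% of 5086 features higher and 1.28% lower. At 5 CPM, 3 of 20 were lower and 0 higher, beside 4.17% and 10.2%. These 3 were H2ac11 at 0.429 (95% exact interval 0.199 to 0.979, 11 against 22 counts), H4c8 at 0.482 (0.140 to 1.31) and H4c4 at 0.491 (0.208 to 1.15).

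Most single ratios were within counting error. Among the 20 genes at 5 CPM or more in either library, the next lowest were H1f3 at 0.576 (0.306 to 1.06) and H2bc12 at 0.599 (0.266 to 1.33). H1f4 was at 0.794 (0.682 to 0.925), an interval below 1, on 324 and 371 counts. H2ac22 at 1.95 (0.861 to 4.54), H2ac4 at 1.68 (1.2 to 2.36), H2bc22 at 1.34 (0.623 to 2.93), H2ac20 at 1.34 (0.724 to 2.63) and H2bc18 at 1.09 (0.505 to 2.53) were the highest of these 20. The intervals of H1f4, H2ac11 and H2ac4 leave out 1. The share of all features whose interval does so was not computed, so these genes are not set apart by it. The intervals also leave out how reads were divided among near-copies, and H2ac11 differs from H2ac23 at 3 coding bases. The H2ac23 copy row held 2078 CPM (Ctrl) and 374 CPM (KD), a quotient of 0.180 (0.167 to 0.194), but the 4 rows with its sequence or a near-copy summed to 3240 CPM in Ctrl and 2372 CPM in KD. The median log2 difference of the 23 genes was -0.33, with 7 higher and 16 lower, beside 0.01 over all features. The KD library also held the macrophage markers given above, whose part in these ratios was not tested.

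The replacement histones mostly have ordinary polyadenylated mRNAs, and several of them were lowest in WT 2. On the TPM scale, with the same limit for a 3′ kit, H2az1 (H2A.Z) had a mean of 5626, H3f3b (H3.3) 958 and H3f3a (H3.3) 117. H2az1 stood at 1677 (WT 1), 614 (WT 2), 1701 (pKO 1), 839 (pKO 2), 2148 (pInv), 1596 (Ctrl) and 1731 (KD) CPM. The libraries numbered 2 were low in WT and pKO, and the groups overlapped. H2az2 likewise stood at 36.6 in WT 2 and 64.3 in pKO 2 and at 69.2 to 128 CPM elsewhere, and H2ax, the variant phosphorylated at DNA breaks, stood at 5.43 in WT 2 and 15.7 in pKO 2 and at 20.5 to 53.6 CPM elsewhere. The H2ax transcript holds the stem-loop word, and none of those of H2az1 and H3f3b does. H3f3b went the other way and was highest in WT 2, at 1303 CPM beside 855 to 1019 in the other 6.

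Of the 11 replacement histones tested, 6 were lowest in WT 2, beside 27.7% of all features, and their median lay 0.73 lower on log2 than that of the other libraries. In KD, 6 of the 11 were highest and 0 lowest, beside 20.1% and 17.0% of all features. Their summed level was 2152 CPM in WT 2 and 2145 CPM in pKO 2, and 2787 to 3445 CPM elsewhere. Of the 23 replication-dependent genes, 2 were lowest and 10 highest in WT 2, beside 24.7% highest of all features, with a median 0.26 higher. Slbp, the gene of the stem-loop binding protein, stood at 44.2 (WT 1), 17.4 (WT 2), 62.6 (pKO 1), 20.9 (pKO 2), 39.0 (pInv), 51.3 (Ctrl) and 56.3 (KD) CPM. It too was low in both libraries numbered 2. No replacement histone passed an adjusted p of 0.05 in edgeR in any of the 3 comparisons. The smallest unadjusted p in them was that of Macroh2a2 in pInv against WT, with a log2 difference of -1.98 (SE 1.25, unadjusted p = 0.0339, adjusted p = 1), and H1f10 in the same comparison was at -0.76 (SE 0.36).

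**Figure D5:**
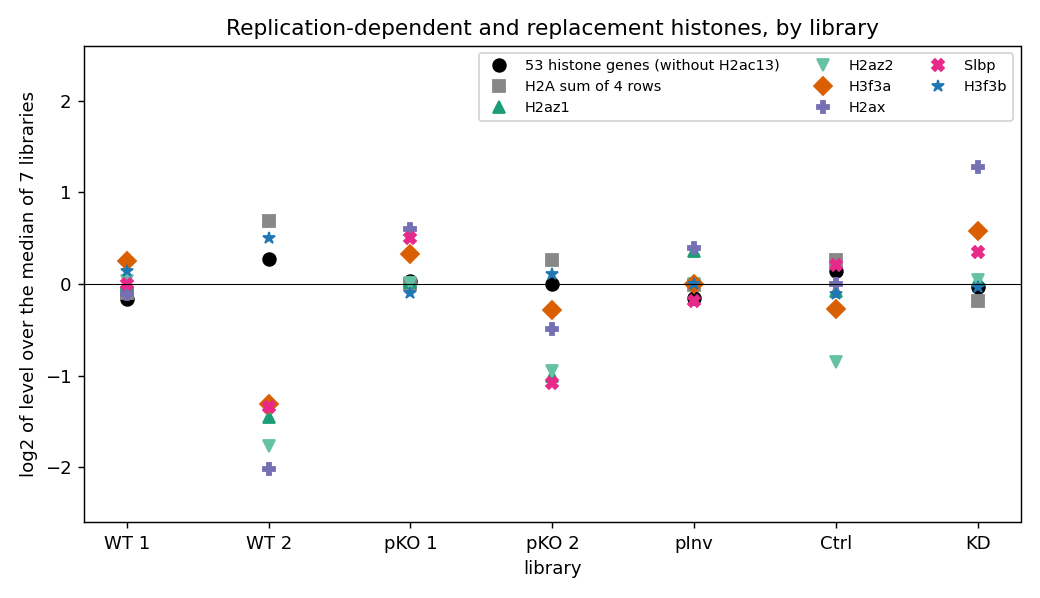
Log2 of the level over its median across the 7 libraries, for the sum of 53 replication-dependent genes, the sum of the 4 near-identical H2A rows, the replacement histones H2az1, H2az2, H3f3a, H3f3b and H2ax, and Slbp, with 1 column per library. In WT 2, both sums and H3f3b lie above 0 and the other genes lie below it, with H2ax lowest at 5.43 CPM.

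Of 30 genes on the list for making and processing histone mRNA, 28 matched a row, with means of 1.10 (Lsm1) to 152 CPM (Srrt). Of these, 26 were tested, and Lsm1 and E2f4 were too low. Npat, the coactivator of histone transcription in S phase, stood at 26.7 (pInv) to 40.2 CPM (KD). Srrt, Nfyb and Yy1 were the highest in CPM, and Srrt ranged from 123 (WT 1) to 179 CPM (WT 2). None of the 26 passed in edgeR in the 3 comparisons, and none had an unadjusted p under 0.05. Ccne2, the cyclin E2 gene of entry into S phase, came nearest, at 0.97 (SE 0.44, unadjusted p = 0.0519, adjusted p = 1) in pInv against WT and 0.89 (SE 0.44, unadjusted p = 0.0678, adjusted p = 1) in pInv against pKO. Nfya, a subunit of the CCAAT-binding factor, had the smallest p in pKO against WT (0.97, SE 2.31, unadjusted p = 0.125, adjusted p = 1), at a mean of 1.17 CPM. At such low counts the SE, from the second fit, cannot be set against the printed difference.

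The genes of the cell cycle and of histone handling did not pass either. None of 25 S phase genes, 19 genes of G2 and mitosis, 17 histone chaperones and 29 genes of the poly(A) tail machinery had an adjusted p under 0.05 in edgeR in the 3 comparisons, where 0% of all features did. Median log2 differences of the S phase genes were -0.02, -0.08 and -0.10 in pKO against WT, pInv against WT and pInv against pKO. The smallest unadjusted p among these lists were those of Cnot8, a deadenylase subunit gene (-1.39, SE 0.62, unadjusted p = 0.0364, adjusted p = 1, pInv against WT), Ung, the uracil glycosylase gene (0.86, SE 0.35, unadjusted p = 0.0381, adjusted p = 1, pInv against pKO) and Bub1b, a mitotic checkpoint gene (-1.32, SE 0.60, unadjusted p = 0.0482, adjusted p = 1, pInv against WT). The replicative helicase gene Mcm7 stood at 523 CPM in WT 2 and 329 to 413 elsewhere, Top2a at 1406 in WT 2 and 678 to 848, and the chaperone gene Npm1 at 4991 in WT 2 and 2201 to 3059 CPM. The lists as a whole did not follow these 3 genes, which were chosen after their values were seen: in WT 2, 10 of the 25 S phase genes were lowest and 7 highest, and 8 of the 19 genes of G2 and mitosis were lowest and 5 highest, beside 27.7% lowest and 24.7% highest of all features.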

How the data were processed

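RNA of 7 libraries of day 4 embryoid bodies was measured with a 3′ kit that starts from poly(A), and libraries were grouped by title. For each, the deposited table came from RSEM on the mm9 build (per the submitters' processing notes, no version named). Per the file headers, it holds expected counts, not normalized, and TPM, which the authors scaled to length and to a fixed total; the FPKM column was not used. The listed length and effective length per feature are further values per the file headers. How reads were trimmed, aligned and assigned to a strand is not given in the sources used here, so overlapping genes cannot be separated.

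Names came from a RefSeq table of another build (GRCm38.p6), used for names, promoter sequences and gene lengths. Expected counts were rounded to whole numbers and fitted with edgeR 4.0.16 in R 4.3.3 (filterByExpr by group, 10265 features, TMM, 1 coefficient per group, quasi-likelihood test, Benjamini-Hochberg adjustment over all features). There were 2 residual degrees of freedom, a prior of 5.86 and a common biological coefficient of variation of 0.294. Log2 differences used a prior count of 2, and each SE came from a second fit with edgeR's default prior count. CPM used the TMM-scaled totals. Totals of 1898350 to 2564478 counts set the precision, and 3 counts, the limit a count of 0 allows, came to 1.12 to 1.80 CPM. The scripts were tested on simulated data.

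The histone genes, the lists and the named-gene rule were chosen with earlier results of these data known. The rule names the 12 genes highest in mean CPM, the 2 highest of each class, the 5 smallest p of each comparison, the 5 largest KD to Ctrl ratios each way, and in the other lists the 3 highest and the 2 smallest p; from those other lists only a selection is printed, chosen after their values were seen. Alternatives were RLE size factors, plain totals, no filter beyond 1 count, DESeq2 1.42.0, limma 3.58.1 on log2(TPM + 1), only the groups compared, leaving out each replicate, groups by the genotype field, a replicate block, adding the merged and copy rows, totals without the 45S precursor and other CPM minimums. Summing H2ac13 with its near-copies and leaving it out were added after seeing the data.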

Additional observations from a re-analysis of the deposited data

How the results depend on the processing

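No replication-dependent histone gene passed an adjusted p of 0.05 in any comparison under any alternative run. Over all features, edgeR without the filter called 9 (pKO against WT), 6 (pInv against WT) and 8 (pInv against pKO), in place of 0, and the genotype field gave 7 for pInv against WT. Leaving out 1 replicate gave 0 to 7 for pKO against WT and 0 to 7 for pInv against pKO, and a lone library was then assumed to vary like the other groups. The cause of these calls was not tested.

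The replicate number was used as a block in a fit of WT and pKO. It called 0 features and gave a median of 0.01 over 21 histone genes. The deviations of the libraries numbered 1 and 2 correlated at 0.311 across genes between WT and pKO. With only 2 numbers, and labels that do not say what a number marks, the libraries share only a number.

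The median log2 difference of the histone genes in pKO against WT ran from -0.071 to 0.30 over the replicates left out, and that in pInv against WT became 0.058 with groups by the genotype field. Plain totals moved the median of all features by 0.10 in pInv against WT and by 0.12 in KD against Ctrl; relative to this the histone medians there, -0.09 and -0.21, were close to the main ones. In KD against Ctrl, 1 histone gene passed the size rule at 10 CPM and 3 at 5 CPM.

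The summed CPM moved with its definition. Unscaled totals without the 45S precursor gave 701 (WT 1), 613 (WT 2), 671 (pKO 1), 541 (pKO 2), 627 (pInv), 742 (Ctrl) and 673 (KD). With merged and copy rows it was 2934, 4899, 3172, 3704, 3099, 3771 and 2827 in the same order. Plain totals gave 465 in WT 2. Without H2ac13 it was 379 (WT 1), 433 (pKO 1), 383 (pInv), 471 (Ctrl) and 417 (KD).

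Some single log2 differences turned sign, none of them called. Groups by the genotype field gave -0.68 (H2bc22), 0.32 (H2ac8), -1.05 (H4c8), -0.43 (H4c9), 0.46 (H2ac20) and 0.41 (H2ac13) in pKO against WT, 0.38 (H2bc12) and -0.026 (H4c8) in pInv against WT, and 0.60 (H2ac6) and 0.50 (H4c9) in pInv against pKO. In pKO against WT, leaving out 1 replicate gave -0.98 to 0.10 for H2ac20 and -3.78 to 1.84 for H2ac13. In pInv against WT, it gave -1.74 to 0.23 for H3c3 and -0.34 to 3.20 for H2ac13. Summed with its near-copies, H2ac13 was -0.35 in pInv against WT and -0.15 in pInv against pKO. Low counts limit most of these genes: only 11 reached a mean of 10 CPM.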
